A study of Rattus norvegicus with 9 samples.

Results

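The 3 rESC-RPC2 arrays were compared with the 3 P-RPC arrays, which together are 6 of the 9 Affymetrix Rat Genome 230 2.0 arrays of the study, and the arrays were chosen by their titles alone. P-RPC samples were neural retinas of postnatal day 1 rats of the SD strain, dissociated and taken fresh and not sorted, so that they hold every cell type of the dissected tissue. rESC-RPC2 samples came from rat embryonic stem cells of the DA strain (a line named DA8-16 in the study's methods), which were aggregated in suspension with Matrigel and the Wnt inhibitor IWR-1e, received fetal bovine serum from day 8, were dissociated on day 14 for adherent culture on coated plates in the same serum medium, and were harvested on day 16. The 3 rESC-RPC1 arrays hold cells of the same line that were plated earlier, on day 10, and moved to N2 medium with serum on day 14. They enter the fit and serve only to show where rESC-RPC2 stood apart. Strain, age, culture and cell type all change together between rESC-RPC2 and P-RPC and cannot be told apart, and all comparisons with P-RPC share the same 3 control arrays. The replicates are labelled biological, but whether they came from separate differentiations or separate animals is not stated in the labels, so the p-values measure the spread between these samples.

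The neural retina forms from the eye field of the anterior neural plate, which is marked by homeobox factors such as Pax6, Rax, Six6 and Lhx2. Its progenitors leave the cell cycle in a set order to become ganglion, horizontal, amacrine and cone cells early and rod, bipolar and Muller glial cells late. Around birth the rat retina therefore still holds many dividing progenitors beside large numbers of young photoreceptors. The neighbouring anterior neural plate gives rise to the ventral forebrain and hypothalamus, whose neurons are marked by Dlx and Nkx2 factors, GABA synthesis and neuropeptides.

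Values are the deposited MAS5 signals of a probe set on a linear scale, with 1 probe set per gene. A gene counted as detected on an array at a signal of 123 or more, which is the 50th percentile over all probe sets and arrays and is called the threshold from here on. Folds are ratios of group means on the log2 scale with any signal under the threshold raised to it, and if no array of a group reached the threshold the fold is a lower bound, written as at least N-fold. Of 14217 genes on the array, 9956 passed the filter (at or above the threshold on at least 3 of 9 arrays). These were tested with limma on log2 signals with a floor of 1, not raised to the threshold. A gene was called at an adjusted p under 0.05 and a fold change of at least 2 on those signals. Calls and log2 fold changes given with a standard error can thus differ from the folds, and a called gene can have a fold under 2. With signals raised to the threshold before the fit, 1930 genes were called. Because a gene can pass through the group in which it is high, the share of tested members that differed is not a share of a whole list, and some genes stand in several lists. Signals of different probe sets are not on a common scale, so levels are compared only within a gene. Medians of lists are log2 fold changes with values under the threshold raised to it, and the median over all tested genes was -0.01.

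All arrays had the same trimmed mean signal (500.2), and between 15095 and 15752 probe sets of an array reached the threshold. Across the log2 signals of the 9956 tested genes, arrays correlated with r from 0.986 to 0.988 within P-RPC. The range was 0.978 to 0.985 within rESC-RPC2 and 0.760 to 0.773 between the groups. Lens genes set replicate 1 of P-RPC apart. Cryaa, a lens crystallin, had signals of 21855, 825 and 2804 in P-RPC, and the summed signal of 22 lens genes ranged from 4997 to 159661 over these arrays. Without this array, 4 of the 5 tested lens genes were lower and 1 was higher, against 4 lower and 0 higher with it.

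The labels were checked against defining markers. Of 6 retinal progenitor markers on the array, 5 were detected on all P-RPC arrays and 3 on all rESC-RPC2 arrays (Six6, Lhx2 and Sfrp2), and Pax6 and Six3 were under the threshold on every rESC-RPC2 array. Six3 was also under it on every P-RPC array, where its probe set read 83.1, 77.2 and 95.7. None of 6 photoreceptor markers was detected on all rESC-RPC2 arrays, against 4 in P-RPC. All 4 ventral forebrain markers on the array (Dlx1, Dlx5, Gad1 and Gad2) were detected on all rESC-RPC2 arrays, against 1 in P-RPC. The markers of liver and endoderm and of muscle were detected on all 3 arrays of neither group (0 of 4 each). For the 5 markers of undifferentiated stem cells there was no probe set with that gene alone, so they were not analysed here. The name rESC-RPC2 is used here as a label of the samples.

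Of the 9956 genes, 2361 (23.7%) were called, of which 1069 (10.7%) were higher and 1292 (13.0%) lower in rESC-RPC2. For 7259 of the tested genes the arrays of the groups did not overlap. With values under the threshold raised to it, which makes bounds of some folds, the largest rises were those of Mt3, a metallothionein of brain, Tagln, transgelin, which binds actin in smooth muscle, and Ccn2, a secreted matricellular protein. On the same values the largest falls were those of Hbb, a globin chain, Pax6, the eye field factor, and Neurod1, a factor of young photoreceptors and amacrine cells. With each of the 6 arrays left out in turn, 2325 to 2380 genes were called. The shares of 10.7% and 13.0% are the background against which each list of genes is read. This reading is limited where members of a list passed the filter through the group in which they are high.

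**Figure D1:**
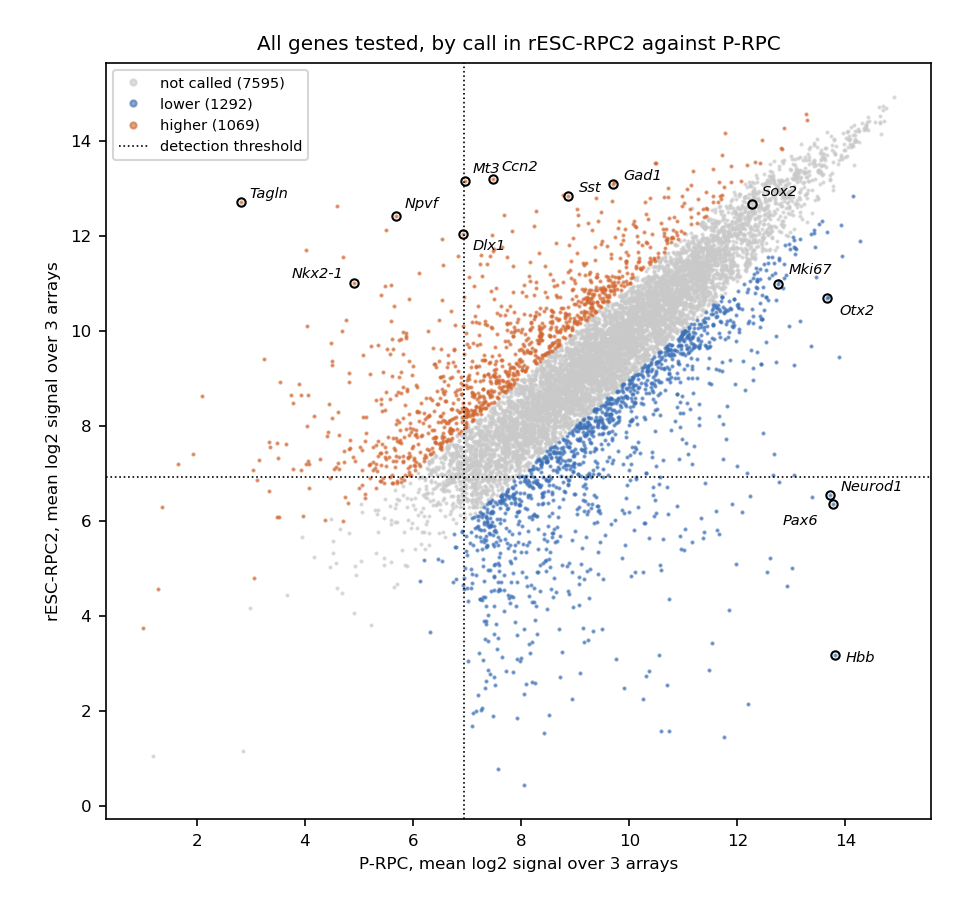
Mean log2 signal of each of the 9956 tested genes over 3 P-RPC arrays (horizontal axis) and 3 rESC-RPC2 arrays (vertical axis), coloured by call, with dotted lines at the detection threshold. Most genes lie along the diagonal. Of the named genes off it, Tagln, Npvf and Nkx2-1 above and Pax6, Neurod1 and Hbb below were under the threshold in the group where they were low. Others, such as Ccn2, Sst, Gad1 and Otx2, were above it on all arrays of both groups.

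**Figure D2:**
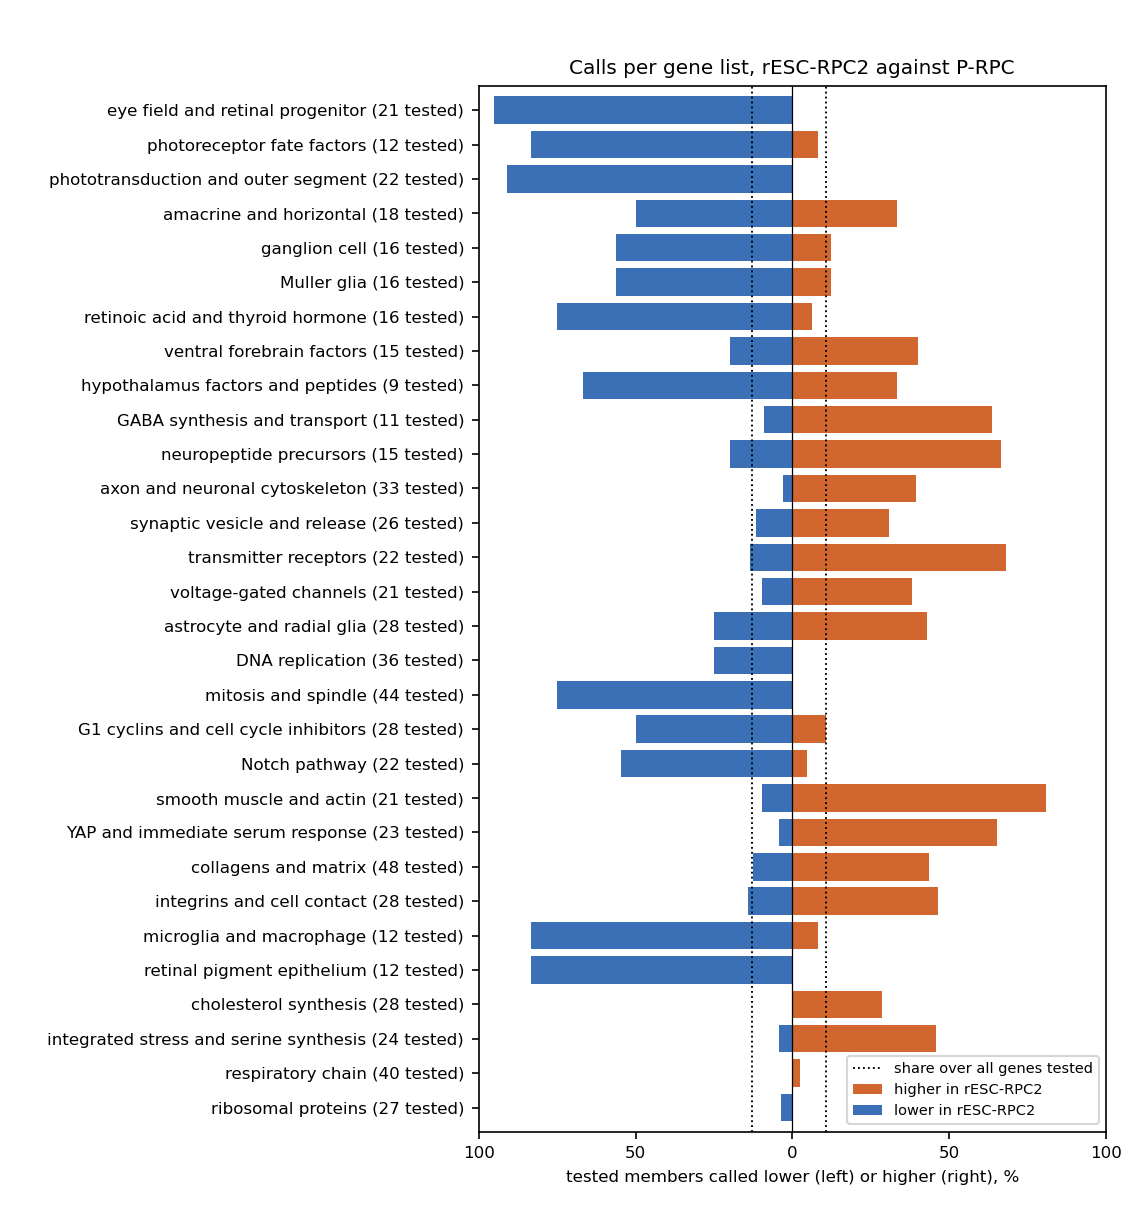
Share of the tested members of 30 gene lists that were called lower (left, blue) or higher (right, orange) in rESC-RPC2 against P-RPC, with dotted lines at the shares over all tested genes (13.0% lower and 10.7% higher). Eye field, phototransduction and mitosis genes reach far to the left and smooth muscle and actin genes far to the right, while respiratory chain and ribosomal protein genes lie inside both lines.

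Genes of the eye field and of retinal progenitors were lower in rESC-RPC2. Of 21 tested members (23 on the array), 20 were called lower, 0 higher, and 1, Sox2, was not called, and the median was -2.98. Pax6, which directs eye formation, had signals of 14206, 13484 and 14227 on the P-RPC arrays and 89.9, 106 and 58.5 on the rESC-RPC2 arrays. The groups did not overlap, and the fall of Pax6 was at least 114-fold (limma, adjusted p = 8.62e-08). Rax, the earliest retinal homeobox factor, read 4557, 4615 and 4696 in P-RPC and 125, 222 and 76.6 in rESC-RPC2. Its level was 30.7-fold lower, with 2 of the 3 rESC-RPC2 arrays above the threshold. Meis1, a homeobox factor of eye growth, read 6571, 6158 and 6896 against 194, 174 and 144 and was 38.6-fold lower (log2 fold change -5.27 ± 0.13, SE). Mab21l1, needed for the eye cup and lens, and Hmx1, a factor of nasal retina, were under the threshold on all rESC-RPC2 arrays and were at least 49.1-fold and at least 38.3-fold lower.

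Some eye field factors were well above the threshold in rESC-RPC2 too. Six6, which keeps retinal progenitors dividing, had signals of 4858, 5026 and 4949 in P-RPC and 1517, 1625 and 1144 in rESC-RPC2, a 3.50-fold difference. Lhx2, another eye field factor that is also used in the forebrain, read 8508, 8212 and 9329 against 3558, 3639 and 2963, a 2.57-fold difference. Both were lower with no overlap of arrays (adjusted p = 2.12e-05 and 1.57e-05). Sox2, a factor of neural progenitors in general, read 4942, 4901 and 4966 in P-RPC and 6273, 6498 and 6631 in rESC-RPC2, and its log2 fold change of 0.39 ± 0.10 (SE) was under the size needed for a call. Against rESC-RPC1, where 14.3% of genes were called (5.02% higher and 9.25% lower in rESC-RPC2), Six6 had a log2 fold change of 1.56 ± 0.20 (SE, adjusted p = 1.20e-04) and was thus higher in rESC-RPC2. Otx2, a factor of the anterior neural plate and of photoreceptors, read 1571, 1741 and 1634 in rESC-RPC2, 6193, 7644 and 3663 in rESC-RPC1 and 12650.2, 13284 and 12973 in P-RPC. It was lower in rESC-RPC2 than in both, with log2 fold changes of -2.98 ± 0.21 against P-RPC and -1.76 ± 0.21 against rESC-RPC1. The departures from P-RPC thus differed between the kinds of rESC-RPCs for Six6 and Otx2, in opposite directions.

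Genes that make, bind or sense retinoic acid and thyroid hormone, which pattern the retina, were also lower, with 12 of 16 tested members lower, 1 higher and a median of -2.0. Aldh1a1, which makes retinoic acid in dorsal retina, had signals of 7586, 7892 and 9443 in P-RPC and 46.1, 21.3 and 35.0 in rESC-RPC2 and was at least 67.5-fold lower. Crabp1, which binds retinoic acid inside the cell, read 5370.3, 5513 and 6194 against 288, 237 and 183 and was 24.5-fold lower. The member called higher was Cyp26b1, which degrades retinoic acid. Its signals were 47.0, 51.1 and 45.2 in P-RPC and 382, 332 and 422 in rESC-RPC2 (at least 3.08-fold higher).

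Photoreceptor genes were mostly lower as well. Of 12 tested fate factors, 10 were lower and 1 higher in rESC-RPC2 (median -1.95), and of 22 tested phototransduction and outer segment genes (39 on the array), 20 were lower and 0 higher (median -2.72). Of the 39, 22 were detected on all P-RPC arrays, which alone passes the filter, and 5 on all rESC-RPC2 arrays. The share of tested members that were lower thus depends on the filter. With no filter 27 of 39 were lower and 0 higher, and with signals raised to the threshold before the fit 15 of 22 were lower. Prdm1, which holds cells to the photoreceptor fate, read 3137, 3512 and 3119 against 67.4, 43.0 and 51.6 and was at least 26.5-fold lower. Rorb, a nuclear receptor needed for rods, read 1480.5, 1299 and 1440.0 against 75.8, 47.6 and 89.9 and was at least 11.5-fold lower. Among the cascade itself, Gngt2, the gamma subunit of cone transducin, had signals of 7317, 8428 and 7655 in P-RPC and 11.1, 33.0 and 41.3 in rESC-RPC2. No array of rESC-RPC2 reached the threshold, and the difference was at least 63.5-fold. Rom1, a protein of outer segment discs, fell from 2476, 3112 and 2509.9 to 49.5, 53.4 and 61.6 (at least 21.9-fold), and Pdc, phosducin, from 1520.3, 1938 and 1651 to 19.6, 19.7 and 22.2 (at least 13.8-fold). Crx, the factor that drives most photoreceptor genes, was low on this probe set in both groups, at 142, 156 and 136 in P-RPC and 3.80, 3.90 and 4.30 in rESC-RPC2, so its bound was small (at least 1.18-fold, adjusted p = 6.92e-04). The fate factor called higher was Mef2c, which neurons and muscle also use. It read 135, 122 and 134 in P-RPC and 1973, 2375 and 2383 in rESC-RPC2, and was 17.1-fold higher.

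Crx binds a short core sequence, TAATCC, or GGATTA on the other strand. Promoter windows from RefSeq (rat build GRCr8, 250 bases before to 50 after the start, 1 window a gene) were available for 41 of 52 photoreceptor genes on the array, and 14 of these (34.1%) held the core, beside 1952 of 27457 promoters of all genes (7.11%). Of the 23 called genes with a window, 7 held it (30.4%). The window of the gene with the smallest adjusted p among them, Aipl1, a chaperone of the photoreceptor phosphodiesterase, is shown because the list as a whole was lower in rESC-RPC2. Aipl1 read 1125, 1228 and 1296 in P-RPC and 36.7, 26.4 and 29.4 in rESC-RPC2 and was at least 9.91-fold lower. The bases are the 250 before the start at chr10:57163456-57163705 on the minus strand, with the core in capitals, which begins 70 bases before the start. A match describes the letters and is not evidence of binding.
Aipl1: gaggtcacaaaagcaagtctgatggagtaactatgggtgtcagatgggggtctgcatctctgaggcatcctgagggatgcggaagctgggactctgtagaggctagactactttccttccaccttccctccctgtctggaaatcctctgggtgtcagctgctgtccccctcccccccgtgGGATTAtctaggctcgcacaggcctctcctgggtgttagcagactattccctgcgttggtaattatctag

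The other retinal cell classes did not move as blocks. Of 18 tested amacrine and horizontal genes, 9 were lower and 6 higher. The lower members included the class factors Tfap2b and Ptf1a (at least 32.7-fold and at least 8.49-fold lower), and the higher members were Gad1, Gad2, Slc32a1, Calb1, Th and Isl1, which forebrain neurons also use. Calb1, the calcium buffer calbindin, read 249.8, 287 and 180.0 in P-RPC and 1438, 1309 and 1277 in rESC-RPC2 and rose 5.71-fold (adjusted p = 7.42e-06). Calb2, its relative calretinin, went the other way, from 1484, 1549 and 1544 to 28.9, 59.6 and 22.6 (at least 12.4-fold lower). Of 16 tested ganglion cell genes, 9 were lower and 2 higher. Sncg, gamma-synuclein, read 8966, 9128 and 7359 in P-RPC and 124, 127 and 124 in rESC-RPC2, a 67.6-fold fall with all rESC-RPC2 arrays just above the threshold. Elavl2, an RNA-binding protein of many young neurons, rose 4.28-fold, from 1716, 1811 and 1551 to 6282, 7596 and 7938. Of 16 tested Muller glia genes, 9 were lower and 2 higher, and Rlbp1, which carries retinaldehyde, read 3366, 3512 and 3499 against 2.20, 5.30 and 1.80 (at least 28.2-fold lower). Car2, carbonic anhydrase, was at least 87.2-fold lower. In bulk samples, fewer cells of a type and less RNA per cell cannot be told apart.

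Some factors of ventral forebrain and hypothalamic neurons were higher in rESC-RPC2. Of 15 tested ventral forebrain factors, 6 were higher, 3 lower and 6 not called, with a median of 0.00, and with a stricter filter (the 75th percentile in place of the 50th) 2 were higher and 3 lower. Dlx1, a homeobox factor of GABA neuron precursors, had signals of 127, 128 and 109 in P-RPC and 3954, 4199.6 and 4509.5 in rESC-RPC2 and rose 33.5-fold (adjusted p = 7.73e-08). Nkx2-1, a factor of the hypothalamus and medial ganglionic eminence, read 27.6, 38.6 and 25.5 against 1805, 2199.7 and 2237 and was at least 16.9-fold higher. Dlx5 and Nkx2-2, of the same regions, were at least 5.06-fold and at least 3.22-fold higher. The members called lower were Meis2, Ebf1 and Rarb, all 3 of which the retina also uses. Nkx2-1 was not called against rESC-RPC1, while Dlx1 was higher in rESC-RPC2 there too (log2 fold change 1.06 ± 0.24, SE). Of 9 tested hypothalamic genes, 3 were higher (Nkx2-1, Npvf and Pmch) and 6 lower (median -1.81), among them Rax and Six6, which are eye field genes as well. Of 10 tested dorsal forebrain and cortical genes, 6 were lower and 2 higher (median -1.54). Among the higher members, Bcl11b, a zinc finger factor of striatal and deep cortical neurons, read 559.5, 568 and 452 in P-RPC and 5568, 6503 and 6139.7 in rESC-RPC2 and rose 11.6-fold.

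GABA and peptide genes rose with them. Of 11 tested genes of GABA synthesis and GABA neuron types, 7 were higher and 1, Calb2, lower (median 1.26). Gad1, which makes GABA, read 829, 752 and 922 in P-RPC and 8309, 9463 and 8405 in rESC-RPC2, and rose 10.5-fold (log2 fold change 3.39 ± 0.12, SE). Gad2, its partner enzyme, read 54.8, 36.6 and 19.3 against 252, 352 and 284 and was at least 2.39-fold higher. Of 15 tested neuropeptide genes (36 on the array), 10 were higher and 3 lower (median 2.08). Nxph1, a secreted ligand of neurexins, had signals of 18.4, 39.9 and 24.3 in P-RPC and 2759.5, 3374 and 2878 in rESC-RPC2 and was at least 24.4-fold higher. Scg2, a granin of secretory granules, rose 14.6-fold, from 159, 158 and 150.3 to 2047, 2559 and 2239. Pmch, the precursor of melanin-concentrating hormone, read 49.4, 11.7 and 34.0 against 1114, 834 and 1894 and was at least 9.85-fold higher, with the most spread among the rESC-RPC2 arrays of these genes. The peptide genes called lower were Gal, Cartpt and Tac1. Gal, galanin, fell from 2556, 2997 and 2573 to 120.2, 112 and 102 (at least 22.0-fold). Of the 15 tested peptide genes, 9 were also higher in rESC-RPC2 than in rESC-RPC1 and 1 was lower. Npvf, an RFamide peptide precursor of the hypothalamus, read 5076, 5203 and 6051 in rESC-RPC2, 149, 338 and 300.1 in rESC-RPC1 and 79.8, 57.9 and 29.6 in P-RPC.

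**Figure D3:**
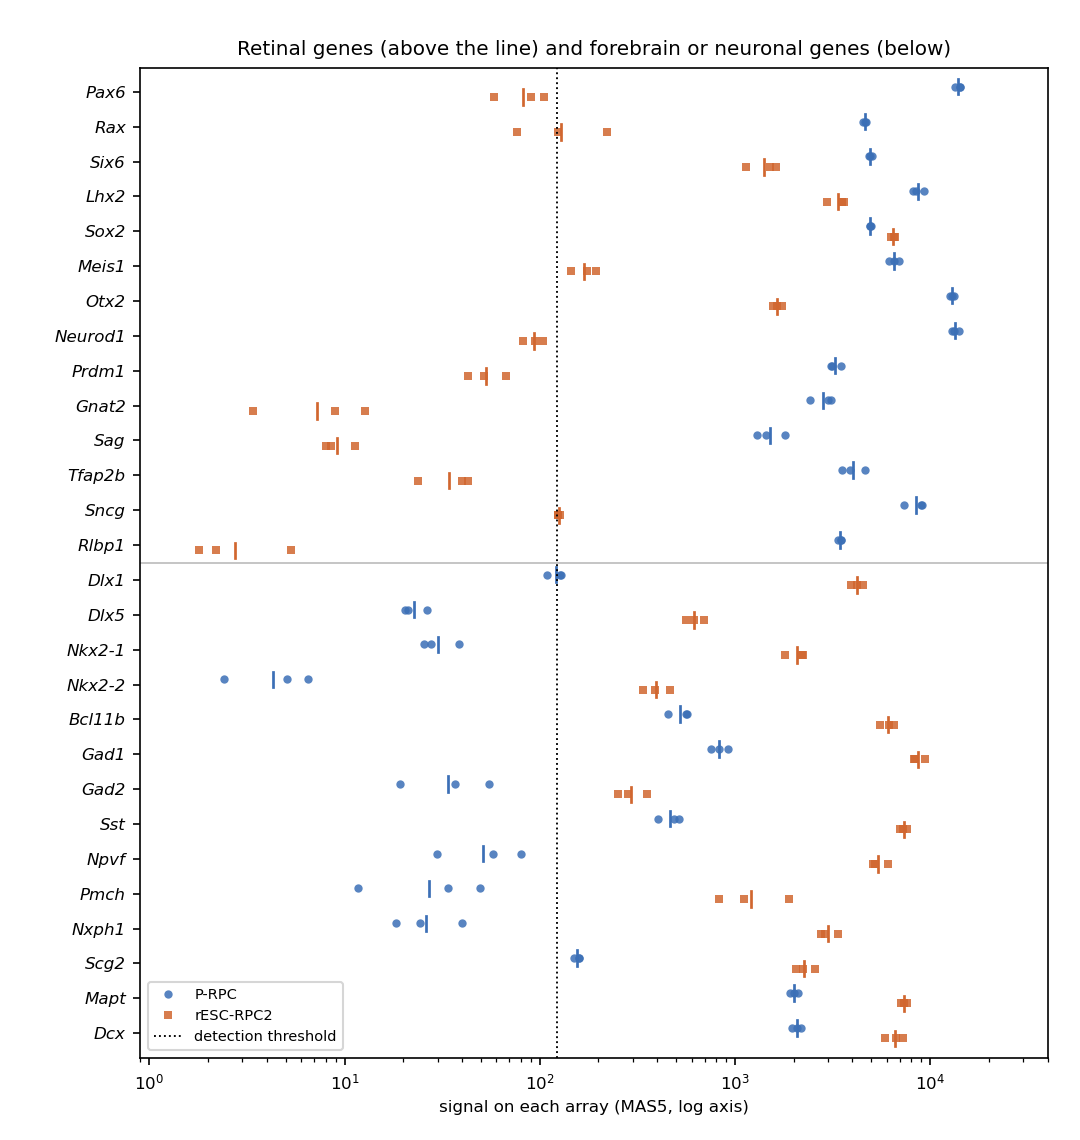
Signal on each array (log axis) of retinal genes above the grey line and of forebrain or neuronal genes below it, with P-RPC as circles, rESC-RPC2 as squares, a short bar at each group's mean log2 signal and a dotted line at the detection threshold. Apart from Sox2, the retinal genes shown were lower in rESC-RPC2 on every array, and all genes below the line were higher on every array. The genes were picked for display, some after their values were seen, so this split does not describe the gene lists. List members that went the other way, such as Calb2, Gal and Meis2 (lower) and Mef2c (higher), are not shown.

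Many structural genes of neurons were not called, and those called were mostly higher. Of 33 tested genes of the axon and neuronal cytoskeleton, 13 were higher, 1 lower and 19 not called (median 0.85). Mapt, the microtubule protein tau, read 1924, 2116 and 1998 in P-RPC and 7345, 7079 and 7619.6 in rESC-RPC2 and rose 3.65-fold. Dclk1, Dpysl5, Map2 and Tubb3, other proteins of growing processes, rose 4.47-fold, 2.66-fold, 2.34-fold and 2.12-fold. The neurofilament genes Nefl and Nefm were not called, with log2 fold changes of -0.39 ± 0.17 and 0.05 ± 0.17 (SE). Prph, an intermediate filament of peripheral and ganglion neurons, was at least 5.62-fold lower. Against rESC-RPC1, 16 of the 33 were higher in rESC-RPC2 and 0 lower.

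Of 26 tested synaptic vesicle genes, 8 were higher, 3 lower and 15 not called (median 0.18). Cplx1, which times vesicle fusion, rose 3.08-fold, from 474, 535 and 406 to 1333, 1509.5 and 1499. Of 22 tested transmitter receptors (40 on the array), 15 were higher and 3 lower (median 0.98). With signals under the threshold raised to it before the fit, 9 were higher and 2 lower. Gria2, an AMPA glutamate receptor subunit, read 917, 935 and 1076 in P-RPC and 3135, 5447 and 5349.6 in rESC-RPC2, where replicate 1 was the lowest, and rose 4.63-fold. Gria3, a further AMPA subunit, rose 7.04-fold, Glrb of the glycine receptor 4.40-fold and Gabbr1 of the GABA-B receptor 2.83-fold. Drd1, a dopamine receptor, was at least 4.69-fold lower. Of 21 tested voltage-gated channels, 8 were higher and 2 lower (median 0.78), and Kcnd2, an A-type potassium channel, read 95.8, 109 and 96.9 against 745, 713 and 713 (at least 5.90-fold higher). Guidance genes were divided, with 10 of 27 higher and 6 lower. Sema3c, a secreted semaphorin, rose 9.78-fold, and Robo3, a receptor for crossing axons, was at least 5.58-fold lower.

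Glial genes were divided as well. Of 28 tested astrocyte and radial glia genes, 12 were higher and 7 lower (median 0.58). Mt3, a zinc-binding protein of brain, read 156, 149.7 and 81.5 in P-RPC and 7569, 9894 and 9871 in rESC-RPC2 and rose 63.6-fold. Sparcl1, a secreted matrix protein of astrocytes, rose 9.89-fold, and Fgfr3, a receptor of radial glia, read 316, 80.5 and 109 against 2157, 2019 and 1746 and rose 11.7-fold, although P-RPC replicate 1 was above the other P-RPC arrays. Hopx, a homeodomain protein of radial glia, went the other way, from 3832, 3518 and 3247 to 169, 247 and 226 (16.6-fold lower). Aqp4 and S100b, markers of more mature astrocytes, were not called and were under the threshold on 5 and 6 of these 6 arrays. Gfap, a marker of astrocytes and radial glia, was called higher. It read 69.9, 49.1 and 58.4 in P-RPC against 615.5, 1470.6 and 849.8, and its rise was at least 7.48-fold (adjusted p = 6.59e-07). Its rESC-RPC1 signals were larger still, at 3472, 3748 and 3847 (log2 fold change of rESC-RPC2 against them -2.01 ± 0.26, SE). No member of this list was higher in rESC-RPC2 than in rESC-RPC1, and 11 were lower.

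The highest share of higher calls in any list with over 20 tested members was that of smooth muscle and actin genes. Of 21 tested members, 17 were higher and 2 lower, with a median of 2.0. Tagln had signals of 6.20, 4.60 and 12.4 in P-RPC and 9319.6, 4897 and 6527 in rESC-RPC2 and was at least 54.5-fold higher (adjusted p = 2.01e-07). Tpm1, a tropomyosin, read 209, 172 and 238 against 7022, 4416 and 5498 and rose 27.1-fold, and all 7 of its tested probe sets were called higher. Cnn2, a calponin of the actin cytoskeleton, rose 23.5-fold, from 164, 223 and 148 to 5085, 3296 and 4202. Acta2, smooth muscle actin, read 149, 158 and 137 in P-RPC and 2199.5, 1016 and 1402 in rESC-RPC2 and rose 9.92-fold. Csrp2, a LIM protein that retinal cells also express, was called lower (7.73-fold), as was Mylk, myosin light chain kinase (2.12-fold).

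Genes known as targets of YAP and of serum rose beside them, with 15 of 23 tested members higher, 1 lower and a median of 1.35. Ccn2 read 232, 152 and 162 in P-RPC and 13173, 6257 and 9969 in rESC-RPC2 and rose 52.4-fold. Ccn1, a related matricellular protein, read 33.0, 47.0 and 59.9 against 5363, 3704 and 4455 and was at least 36.4-fold higher. For both genes every rESC-RPC2 array was above every P-RPC array. Fos, an immediate early factor, rose 6.76-fold, with 2374, 886 and 662 on the rESC-RPC2 arrays, so that replicate 1 lay well above the others. Tead1, the DNA-binding partner of YAP, rose 2.15-fold, and Klf10, an early gene of TGF-beta, was 2.15-fold lower.

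Matrix and adhesion genes rose in part. Of 48 tested collagen and matrix genes, 21 were higher and 6 lower (median 0.30), and of 28 integrin and contact genes, 13 were higher and 4 lower (median 0.52). Lox, which crosslinks collagen, read 75.2, 96.9 and 111 in P-RPC and 4665, 3199 and 3983 in rESC-RPC2 and was at least 31.8-fold higher. Col5a2, a fibrillar collagen chain, rose 14.0-fold, and Timp3, an inhibitor of matrix proteases, rose 7.03-fold. Anxa1 and Anxa2, annexins of the cell cortex, rose 19.1-fold and 18.9-fold. Col9a1, a collagen chain of cartilage and vitreous, fell from 6583, 5648 and 6574 to 29.3, 43.2 and 41.5 (at least 51.0-fold). Against rESC-RPC1, 35 of the 48 matrix genes were lower in rESC-RPC2 and 1 was higher. Col1a2, a chain of type I collagen, lay between, at 104, 132 and 109 in P-RPC, 3739, 2308 and 3342 in rESC-RPC2 and 14090.1, 9456 and 19307 in rESC-RPC1. Its log2 fold change was 4.74 ± 0.25 against P-RPC and -2.16 ± 0.25 against rESC-RPC1 (SE). Of the 21 tested actin genes, 18 were not called between rESC-RPC2 and rESC-RPC1, 2 were higher in rESC-RPC2 and 1 was lower.

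**Figure D4:**
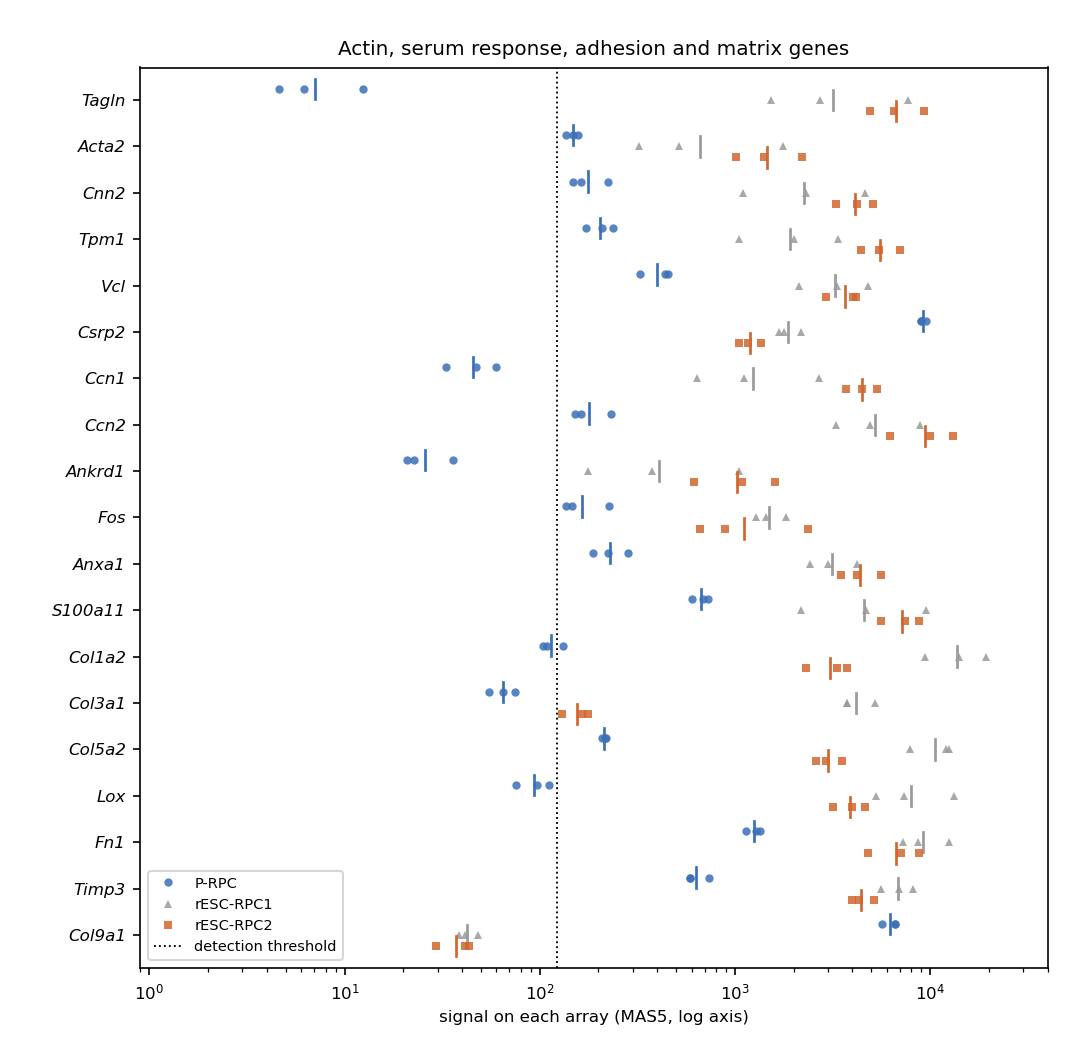
Signal on each array (log axis) of actin, serum response, adhesion and matrix genes in P-RPC (circles), rESC-RPC1 (triangles) and rESC-RPC2 (squares), with a short bar at each group's mean log2 signal and a dotted line at the detection threshold. The mean bars of Tagln and Ccn2 lie above those of rESC-RPC1 in rESC-RPC2, with arrays that overlap, while Col1a2 and Col3a1 lie between P-RPC and rESC-RPC1, and Csrp2 and Col9a1 are highest in P-RPC.

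Within rESC-RPC2 the actin and matrix genes were mostly highest on the same array. Of the 18 called smooth muscle and actin genes detected on all rESC-RPC2 arrays, 17 were highest in replicate 1 and 16 lowest in replicate 2, and the highest array was a median of 1.58 times the lowest. In the same way 17 of 22 called matrix genes, 12 of 15 adhesion genes and 11 of 15 serum response genes were highest in replicate 1. Over all 1021 genes called higher and detected on all rESC-RPC2 arrays, 431 were highest in replicate 1, 322 in replicate 2 and 268 in replicate 3, and the median ratio was 1.25. The called mitosis genes, which were lower than in P-RPC, were also mostly highest in replicate 1 (26 of 33). Over all 721 genes called lower and detected on all rESC-RPC2 arrays, 282 were highest in replicate 1, 284 in replicate 2 and 155 in replicate 3. Of the 8833 tested genes detected there, called or not, these counts were 3789, 2701 and 2343. Neuronal and glial lists varied, since 7 of 13 called axon genes and 13 of 18 called astrocyte genes were highest in replicate 2, against 2 of 10 called neuropeptide genes, 6 of which were highest in replicate 3, and 2 of 7 called GABA genes. Without rESC-RPC2 replicate 1, 16 of 21 actin genes were called higher and 2 lower, and without replicate 2, 17 and 1. These counts are a description of 3 arrays, and no cause was tested.

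The CArG box, which is bound by serum response factor, is a control element of some actin genes. Of 19 promoter windows of the 24 members on the array, 3 held a CArG box (15.8%), beside 451 of 27457 promoters of all genes (1.64%), and of 15 windows of called genes 2 held it (13.3%), those of Cnn2 and Acta1. The window of Cnn2, which rose 23.5-fold, is shown because its adjusted p was the smallest among called members with the box. The window covers the 250 bases before the start at chr7:10370313-10370562 of GRCr8 on the minus strand. The CArG box is in capitals and begins 71 bases before the start. Here too a match describes the letters and is not evidence of binding.
Cnn2: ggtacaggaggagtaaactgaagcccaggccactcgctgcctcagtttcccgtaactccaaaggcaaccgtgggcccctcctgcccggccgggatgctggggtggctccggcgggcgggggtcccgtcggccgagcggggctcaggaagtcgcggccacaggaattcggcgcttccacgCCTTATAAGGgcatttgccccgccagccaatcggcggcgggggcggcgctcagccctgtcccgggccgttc

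Genes of cell division were not called higher in rESC-RPC2, and many were lower. Of 44 mitosis and spindle genes, all tested, 33 were lower and 0 higher (median -1.24). Of 36 DNA replication genes, all tested, 9 were lower and 0 higher (median -0.70), with 5 lower without rESC-RPC2 replicate 2 and 6 with arrays centred on their medians. No test compared the shares of these lists. Nusap1, a spindle protein, read 7001, 6517 and 6673 in P-RPC and 1674, 1615 and 1552 in rESC-RPC2 and fell 4.17-fold (log2 fold change -2.06 ± 0.07, SE, adjusted p = 8.92e-09). Kif18a, a kinesin that aligns chromosomes, fell 10.9-fold, from 3639, 3307 and 2812 to 269.9, 371 and 264. Ccnb2, a mitotic cyclin, and Aspm, a spindle pole protein, fell 3.52-fold and 3.84-fold. The signals of all 44 genes remained above the threshold on every rESC-RPC2 array. Mcm7, a subunit of the replicative helicase, read 6021, 5910.4 and 6336 against 3208, 2470.0 and 2584 and fell 2.23-fold. Pcna, the polymerase clamp, had a log2 fold change of -0.53 ± 0.07 (SE) and was not called. Uhrf1, which maintains DNA methylation after replication, fell 4.62-fold. No member of either list was called between rESC-RPC2 and rESC-RPC1.

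Promoters of replication genes often hold an E2F site, searched here as TTTCCCGC or TTTGGCGC on either strand. Of 34 windows of the 36 members, 13 held a site (38.2%), beside 420 of 27457 promoters of all genes (1.53%), and of 9 windows of called members 5 did (55.6%). The window of Mcm7, the called member with the smallest adjusted p among those with a site, covers chr12:22163179-22163428 of GRCr8 on the minus strand. Its site is in capitals, in the form on the other strand, and begins 233 bases before the start. This match, too, is not evidence of binding.
Mcm7: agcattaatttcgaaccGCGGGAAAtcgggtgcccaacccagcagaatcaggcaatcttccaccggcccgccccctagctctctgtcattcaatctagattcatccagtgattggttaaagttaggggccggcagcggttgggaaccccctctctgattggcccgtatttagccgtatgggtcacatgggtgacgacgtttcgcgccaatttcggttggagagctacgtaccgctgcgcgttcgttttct

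Among regulators of the cell cycle, both drivers and brakes of division were lower. Of 28 tested G1 cyclins and inhibitors, 14 were lower and 3 higher (median -1.03). Ccnd1, the D cyclin of retinal progenitors, fell 5.20-fold, from 15928, 14888 and 16506 to 3281, 2657 and 3185, and Cdkn1c, an inhibitor that ends proliferation in retinal cells, also fell, from 4912, 4043 and 4217 to 704, 607 and 679 (6.61-fold). Cdkn2c and Gadd45a, other brakes on division, fell 3.56-fold and 7.78-fold. The 3 members called higher were Gadd45b, Myc and Ccnd2. Notch genes, which keep neural progenitors undifferentiated, were lower for 12 of 22 tested members and higher for 1 (median -1.0). Notch1, a receptor, read 4105, 4086 and 4390.3 in P-RPC and 1018, 1077 and 942 in rESC-RPC2 and fell 4.15-fold. Hes1 and Nrarp, which are targets of the pathway, fell 2.61-fold and 6.06-fold, and Rbpj, its DNA-binding protein, fell 2.19-fold. Notch1 was lower in rESC-RPC2 than in rESC-RPC1 too (log2 fold change -1.10 ± 0.10, SE).

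**Figure D5:**
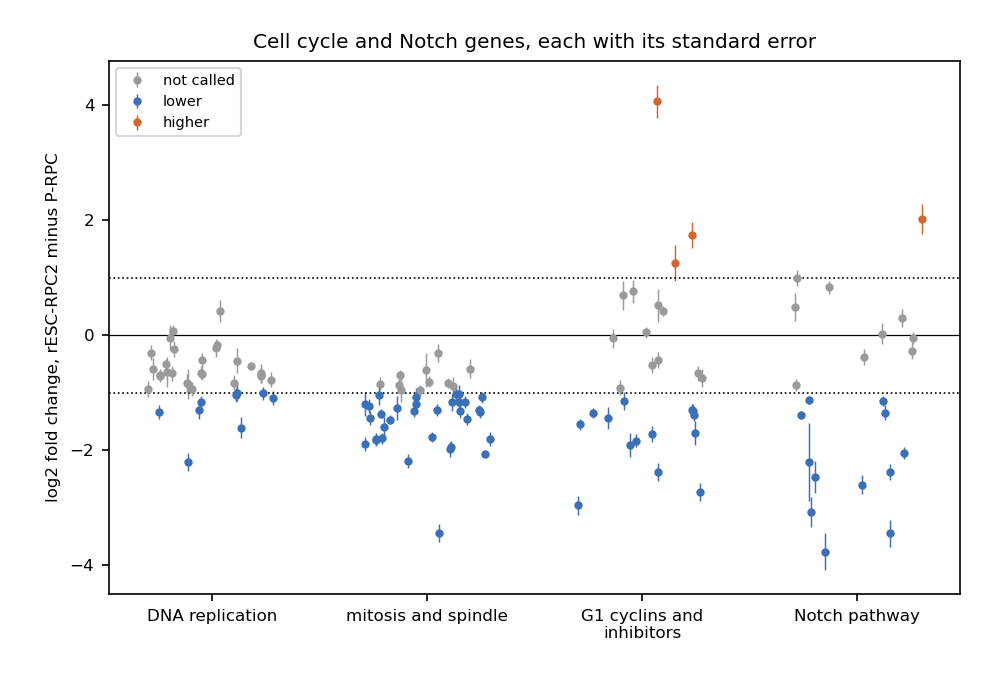
Log2 fold change, rESC-RPC2 minus P-RPC, of each tested gene of DNA replication, mitosis and spindle, G1 cyclins and inhibitors, and the Notch pathway, with bars for limma's standard error and dotted lines at the size needed for a call. Of the mitosis genes 33 of 44 lie past the lower line, against 9 of 36 replication genes, whose median is -0.70.

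Other signalling genes were divided. Of 17 tested Wnt genes 5 were higher and 7 lower, of 28 TGF-beta and BMP genes 7 and 6, and of 22 FGF, PDGF and ErbB genes 9 and 5. Nog, the BMP antagonist noggin, read 60.7, 66.2 and 83.0 in P-RPC and 2435, 2191 and 2472 in rESC-RPC2 and was at least 19.3-fold higher. Tgfb3, a TGF-beta ligand, was at least 6.74-fold higher. Wnt7a, a ligand of forebrain, and Wif1, which binds Wnt ligands, were at least 6.85-fold and at least 6.50-fold higher. Sfrp2, a Wnt antagonist of retinal progenitors, fell from 3314, 3501 and 3446 to 154, 204 and 128 (21.5-fold). Dkk3, a secreted protein of progenitors and Muller glia, fell 21.6-fold. Egfr and Fgf9, a receptor and a ligand that act on retinal progenitors, fell 10.2-fold and 6.85-fold.

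Metabolic genes moved in small groups. Of 32 tested glycolysis and hypoxia genes, 9 were lower and 6 higher (median -0.49). Slc2a1, the glucose transporter of retina and vessels, read 6426, 6755 and 7112 in P-RPC and 702, 573 and 688 in rESC-RPC2 and fell 10.4-fold. Ndrg1 and Slc16a3, both induced by low oxygen, were at least 35.6-fold and at least 7.90-fold lower, while Vegfa, a further gene of this response, was not called (log2 fold change -0.43 ± 0.17, SE). Of 24 tested genes of the integrated stress response and serine synthesis, 11 were higher and 1 lower (median 0.79). Slc7a3, a transporter of cationic amino acids, read 58.9, 46.5 and 83.1 against 1728, 1501 and 1667 and was at least 13.3-fold higher. Phgdh and Asns, which make serine and asparagine, rose 8.08-fold and 6.26-fold. Of 28 cholesterol synthesis genes 8 were higher and 0 lower (median 0.65), with Msmo1, a sterol oxidase, up 2.72-fold. Nqo1 and Gstm1, of detoxification, rose 8.89-fold and 5.21-fold. Few housekeeping genes were called, with 1 of 40 respiratory chain genes and 1 of 27 tested ribosomal protein genes called, both well under the 23.7% of all genes.

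Imprinted and growth factor genes were divided, with 6 of 21 tested members higher and 6 lower. Mest, an imprinted gene expressed from the paternal copy, read 1457, 1378 and 1457 in P-RPC and 14124, 10596 and 10830.2 in rESC-RPC2 and rose 8.21-fold. Ndn, an imprinted regulator of neurons, rose 2.66-fold. Grb10, an imprinted inhibitor of insulin signalling, fell 7.02-fold and was higher in rESC-RPC2 than in rESC-RPC1 (log2 fold change 1.50 ± 0.13, SE). Because P-RPC and rESC-RPC2 differ in strain as well, an effect of sequence differences on single probe sets was not tested.

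Markers of other cells of the fresh tissue were lower in rESC-RPC2 as well. The summed signal of 24 microglia and macrophage genes was 4071 to 4565 in P-RPC and 967 to 1234 in rESC-RPC2, and 10 of 12 tested members were lower and 1 higher. All 6 microglia markers were under the threshold on every rESC-RPC2 array, among them C1qa, a complement component (398, 324 and 325 in P-RPC and 45.2, 39.6 and 25.1 in rESC-RPC2). The pigment epithelium list summed to 26458 to 28932 against 2684 to 2891, with 10 of 12 tested members lower. Otx2, which is in this list but also marks anterior neural plate and photoreceptors, made up much of these sums, at 12650.2, 13284 and 12973 in P-RPC and 1571, 1741 and 1634 in rESC-RPC2. Pmel, of the pigment granule, read 2134, 1943 and 2116 against 16.8, 77.3 and 56.5 (at least 16.8-fold lower). Ttr, a carrier of thyroid hormone and retinol made by pigment epithelium, was lower (39.4-fold), with 2 of 3 rESC-RPC2 arrays under the threshold and the other at it, so that this fold is close to a lower bound. The red blood cell gene Hbb read 14139.7, 13868 and 15033 in P-RPC and 12, 5.0 and 12.3 in rESC-RPC2. Of 3 red blood cell markers, only Hbb was detected on all P-RPC arrays. Of 11 genes of that list on the array, 2 were tested, with 1 lower and 1 not called. The list of 27 vessel genes, of which 3 were tested and lower, summed to 7789 to 8310 against 872 to 1002. Most of the P-RPC sum came from Kdr, a VEGF receptor of vessels that retinal progenitors also express, which read 6361, 6357 and 6722 in P-RPC and fell 51.5-fold. Pecam1, a defining marker of endothelium, was under the threshold on all 6 arrays. The part of these cells in the lower signals of rESC-RPC2 was not tested. Most tested members of the microglia, pigment epithelium and vessel lists were detected on all P-RPC arrays, which alone passes the filter. Their shares of lower calls thus depend on the filter. Detected on all P-RPC arrays were 11, 12 and 3 genes, in that order, against 1, 4 and 0 on all rESC-RPC2 arrays. With signals raised to the threshold before the fit, 7 of 12, 8 of 12 and 1 of 3 were lower, and 1, 0 and 0 higher.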

How the data were processed

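RNA of 9 samples (3 groups of 3) was measured on Affymetrix Rat Genome 230 2.0 arrays. The authors made the deposited signal intensity values with MAS5, which scales every array to a common trimmed mean, and the values are linear. The version of MAS5 is not given in the sources used here. Groups were taken from the sample titles. From the deposited intensity values, log2 signals with a floor of 1 were computed here. Of 31099 probe sets, 57 controls were left out, 20826 had 1 gene symbol, 436 had several and 9780 had none. Names were checked through Entrez identifiers against RefSeq (20758 matched), and 0 names changed. The names covered 14217 genes. Probe sets at or above the 50th percentile of all values on at least 3 arrays passed the filter, and of these the one with the highest mean log2 signal over all arrays stood for its gene (for a gene with none, the highest of all its probe sets, not tested). Genes were tested with limma 3.58.1 in R 4.3.3 (group means over all 9 arrays, eBayes with trend), with Benjamini-Hochberg adjustment over all 9956. The number of arrays limits the precision, and 3 against 3 arrays cannot give an exact permutation p below 0.1.

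The members and the 53 gene lists were chosen with earlier results of these data known. Genes were named by rule: the 15 largest rises and falls, in each list the called members of smallest adjusted p (at most 5), cell type markers and genes the study names. Others were named after their values were seen: Ccnd2, Cyp26b1, Fos, Gadd45b, Gal, Hopx, Klf10, Myc, Mylk, Nefl, Nefm, Pmch, Rarb, Slc32a1, Tac1, Vegfa and the genes of the plots beyond the rule. Replicate numbers did not pair the samples (correlations of deviations between same-numbered rESC-RPC2 and P-RPC arrays of -0.02, 0.07 and -0.02). The fit was checked on simulated data. Alternatives were the normalization, filter, floor, number of arrays, variance model, probe set rule, replicate block, the methods' t-test and leaving out each array.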

Additional observations from a re-analysis of the deposited data

Results flagged for a closer look

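Dct, dopachrome tautomerase of the pigment pathway, departed from P-RPC in opposite directions in the kinds of rESC-RPCs. Its signals were 865, 984 and 1160.0 in P-RPC, 109.9, 125 and 92.1 in rESC-RPC2 and 3389, 4630.5 and 1034 in rESC-RPC1. The difference between rESC-RPC2 and rESC-RPC1, which is the difference of their departures from the shared P-RPC arrays, was -4.55 on the log2 scale (limma, adjusted p = 2.12e-05). Groups of 3 arrays were too small for a test of single outlying arrays.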

How the results depend on the processing

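The count of called genes, 2361 of 9956, fell to 1372 (659 higher and 713 lower) with a stricter filter, which tested 6332 genes, and to 799 (350 higher and 449 lower) with a fold change of at least 4 required. With each array left out in turn, the calls ranged from 2325 to 2380, the higher calls from 1048 to 1074 and the lower calls from 1271 to 1311. Median centring gave 1180 higher and 1169 lower calls, so that the excess of lower calls turned, quantile normalization gave 1106 and 1238, no filter 1265 and 1613, and signals raised to the threshold before the fit 879 and 1051. The methods' t-test called 2341 genes, and 2302 after Benjamini-Hochberg adjustment. Same-numbered arrays did not deviate together, and with the replicate block 2363 genes were called (1071 higher and 1292 lower), of which 2360 were shared with the fit without it, and 1426 against rESC-RPC1.

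Of 239 named genes that were called, 214 kept their call in every alternative that tested them. There were 16 alternatives that give values for single genes, and the stricter filter left some named genes untested. Of 3916 such values, 45 lost the call with the direction kept. Aif1, a microglia gene, was the 1 reversal, at 0.80 on the log2 scale with no filter, where another of its probe sets was taken. Irx5, a bipolar cell factor, lost its call with no filter (-0.34). The direction with more calls turned under some alternative for 6 lists, among them ventral forebrain factors (2 higher and 3 lower with the stricter filter) and TGF-beta and BMP genes (5 higher and 6 lower without P-RPC replicate 1, and the same without rESC-RPC2 replicate 3). Signal over background limits the folds, and only a bound can be given for 302 of the genes called higher and 445 of those called lower.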

Other observations

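Further gene groups gave the following values in rESC-RPC2 against P-RPC. Of 23 heat shock and unfolded protein genes, all tested, 7 were higher, 1 was lower and 15 were not called (median 0.61). Hspb1, a small heat shock protein that binds actin, read 77.1, 35.4 and 66.4 in P-RPC and 1409, 785 and 934 in rESC-RPC2 and was at least 8.25-fold higher, and its signals in rESC-RPC1 were 7572, 5166 and 7648. Bag3, a co-chaperone of stressed and contractile cells, rose at least 1.69-fold. Of 14 tested interferon and antigen presentation genes, 4 were higher and 5 lower, and 11 were lower in rESC-RPC2 than in rESC-RPC1. B2m, the light chain of class I molecules, read 955, 954 and 1082 in P-RPC, 2439, 2280.4 and 2378 in rESC-RPC2 and 8994, 8708 and 8445 in rESC-RPC1, so that P-RPC was lowest. Alleles of antigen presentation genes differ between rat strains, and an effect of strain on these probe sets was not tested.

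Beside Bcl11b, the other dorsal forebrain gene called higher was Cux2. This factor of upper-layer cortical neurons and some interneurons read 52.8, 56.6 and 60.4 against 581, 728 and 933 and was at least 5.98-fold higher. Of 6 tested genes of the oligodendrocyte lineage, Olig1 and Nkx2-2 were higher, and Cnp and Cldn11, of myelinating cells, were lower. Olig1, an early factor of that lineage, read 14.1, 34.4 and 6.6 against 494, 589.8 and 366 and was at least 3.87-fold higher. Of 6 tested pluripotency genes, Klf4 and Klf5 were higher and Tbx3 was lower, and these factors are also used in other cells. Of 23 genes of midbrain, hindbrain and Hox clusters on the array, 2 were tested, with Egr2 higher and Irx3 lower. Of 11 tested choroid plexus and ependyma genes, 2 were higher and 4 lower, and Sostdc1, a secreted BMP and Wnt antagonist, read 504, 507 and 590.3 against 6553, 3412 and 4985 (9.04-fold higher). Of 5 tested endoderm and liver genes, 4 were lower and 0 higher, among them Cdh1, E-cadherin (203, 150.5 and 191 against 32.9, 29.5 and 24.9). All 5 were detected on all P-RPC arrays and 0 on all rESC-RPC2 arrays. With signals raised to the threshold before the fit, 2 were lower and 0 higher.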
